A study of Mus musculus with 2 samples.

Results

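Growth cone membrane proteins are represented here by 6 genes of the deposited table, Gap43, Basp1, Marcks, Marcksl1, Gpm6a and Gpm6b, chosen by name out of 45578 genes, each through its transcript with the highest footprint count. The libraries came from brains of control mice at postnatal day 5 and form 1 group of 2 biological replicates, with no second condition. The design text speaks of a single mouse, so whether the replicates are separate animals is not certain. The p-values of the main test set the difference between these 2 libraries against counting error alone and hold no estimate of the spread between replicates. All of these mice were heterozygous for the mouse Smn gene and carried the human SMN2 transgene (Smn+/-; SMN2tg/0) on an FVB background, so the controls are not wild type. RiboLace uses beads with a puromycin analogue to pull down ribosomes engaged in translation, after which the RNA fragments they protect are sequenced. A count is therefore a measure of ribosomes on a transcript, and without a matched RNA library it does not separate the amount of messenger RNA from how heavily each copy is translated. In whole brain, fewer cells of a type and less RNA per cell cannot be told apart either.

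The growth cone is the motile tip of a growing axon, and its membrane is fed by vesicles and anchored to actin. GAP-43, BASP1 (also called CAP-23) and MARCKS are acidic, mostly unstructured proteins that hold to the inner face of the membrane by an attached fatty acid and a patch of basic residues; the patch binds calmodulin or the phosphoinositide PIP2, and in GAP-43 and the MARCKS proteins it is phosphorylated by protein kinase C. M6a and M6b, the products of Gpm6a and Gpm6b, belong to the proteolipid family and cross the membrane several times.

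Replicate 1 held 343552 counts at the gene level and replicate 2 held 120282, so 1 count was worth 2.71 CPM (counts scaled by library size) in replicate 1 and 8.93 CPM in replicate 2, and the values of replicate 2 are the less precise. Of the genes, 5436 had a mean of at least 10 counts and were tested, and 4294 of these were coding genes with a coding length for their transcript. All 6 growth cone genes passed this filter. The markers were those of brain for the most part: the 6 neuronal markers summed to 5756 and 6769 CPM, the 6 astrocyte and radial glia markers to 2003 and 2366 CPM, the 4 microglial markers to 157 and 152 CPM, and the liver genes Alb and Apoa2 had no count in either library. Of 3 skeletal muscle genes, Ckm had no count and Myh1 had 1, but Acta1 had 70 and 22 counts, or 167 and 173 CPM per kilobase of coding sequence; Acta1 is closely related to the abundant Actb, and whether they share fragments was not tested. The 4 globin genes, which mark red blood cells, summed to 3797 and 4126 CPM. Coding genes held 279531 of the counts in replicate 1 and 87925 in replicate 2, a smaller share of the latter, and its part in the differences between the libraries below was not tested beyond the change of scaling.

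The 6 genes held 2134 counts in replicate 1, which is 0.621% of all gene counts (95% Wilson interval 0.595 to 0.648). In replicate 2 they held 815 counts, a share of 0.678% (0.633 to 0.726). The mean share was 0.649% ± 0.040 (SD, n = 2), and the intervals of the libraries overlapped. Of the counts of protein-coding genes, the share was 0.763% (0.732 to 0.796) in replicate 1 and 0.927% (0.866 to 0.992) in replicate 2. Those intervals stood apart, so whether the libraries differ depends on the denominator. Per length of coding sequence, 5 of the 6 stood among the 50 densest of the 4294 coding genes. The median density of the 6 was 1581 CPM per kilobase of coding sequence, against 62.3 for all coding genes tested. Densities on the most counted transcript were lower for genes with many transcripts. Their median was 88.6 for coding genes with 1 transcript and 28.35 for those with 13 or more. The median coding length, by which the counts are divided, also rose, from 1113 to 2559 nucleotides. The parts of length and of transcript number were not told apart. Of the 6 genes, 4 have 1 transcript, against 29.8% of the coding genes tested. How far this moves their ranks was not tested. Gpm6b was the exception, at rank 606, and its count depends on how fragments were assigned to its 12 transcripts, as described below. The coding sequences of the 6 genes were short, with a median of 760.5 nucleotides against 1398 for the coding genes tested.

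**Figure D1:**
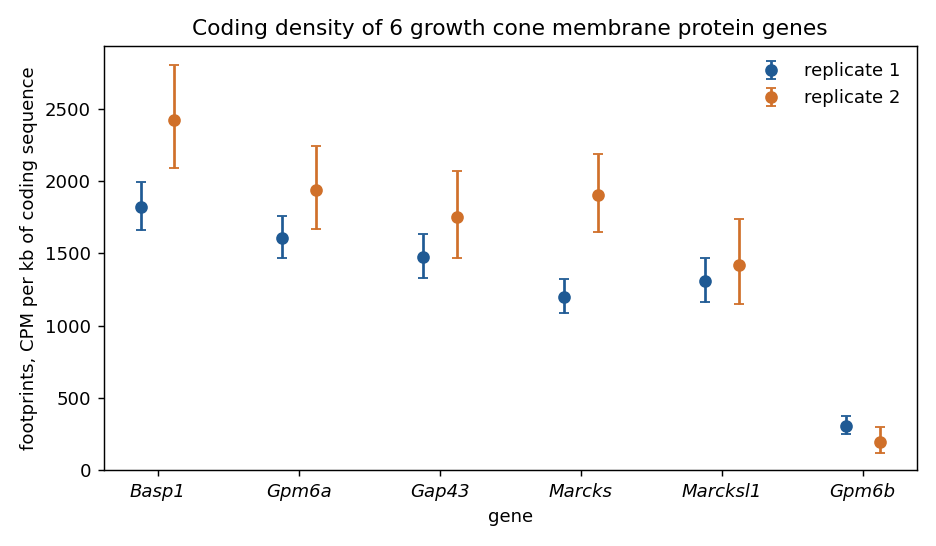
Coding density of each gene in CPM per kilobase of coding sequence (vertical axis, from 0), in replicate 1 (blue) and replicate 2 (orange); points are single libraries and bars are exact 95% Poisson intervals for counting error. Basp1 to Marcksl1 lie between 1201 and 2426, while Gpm6b lies at 307 and 195; only for Basp1 and Marcks do the intervals of the libraries stand apart.

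Basp1 (ENSMUSG00000045763; chromosome 15, 25363277 to 25413764) was the densest of the 6. This and the other locations are gene spans of the RefSeq annotation of GRCm38.p6, a later patch of the build named by the submitters that keeps the coordinates of its chromosomes. The gene has 1 transcript in the table, of 1847 nucleotides, with a coding sequence of 681 nucleotides between untranslated regions of 222 and 944. It had 458 counts in replicate 1 and 185 in replicate 2, which gave 1823 CPM per kilobase of coding sequence (95% Poisson interval 1659 to 1997) and 2426 (2089 to 2802). The level was higher in replicate 2. Its mean of 2124 ± 427 CPM per kilobase (SD, n = 2) placed it at rank 24 of 4294, at rank 26 in replicate 1 and rank 22 in replicate 2.

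Gap43 (ENSMUSG00000047261; chromosome 16, 42248552 to 42340651) has nearly the same coding length, 684 nucleotides in a transcript of 1420, with untranslated regions of 149 and 587. Its 372 and 134 counts corresponded to 1474 (1328 to 1632) and 1749 (1466 to 2072) CPM per kilobase of coding sequence, intervals that overlapped. The mean was 1612 ± 195 (SD, n = 2), at rank 37. GAP-43 and BASP1 are often treated as functional relatives, and Basp1 was the denser of the pair in both libraries: 1.24 times as dense as Gap43 in replicate 1 (95% Clopper-Pearson interval 1.08 to 1.42) and 1.39 times in replicate 2 (1.10 to 1.75). A second Gap43 transcript, non-coding and of 760 nucleotides, held 30 and 11 counts, so that adding it changes the gene little.

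Marcks (ENSMUSG00000069662; chromosome 10, 37133243 to 37138926) encodes the founding member of its family and has 1 transcript, of 4048 nucleotides, of which 930 are coding and 2733 form the 3' untranslated region. It had 412 counts in replicate 1 and 198 in replicate 2. These gave 1201 (1087 to 1322) and 1901 (1646 to 2185) CPM per kilobase of coding sequence, and the intervals did not overlap. The mean was 1551 ± 495 (SD, n = 2), the widest spread of the 6 genes, with rank 51 in replicate 1 and rank 34 in replicate 2.

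Marcksl1 (ENSMUSG00000047945; chromosome 4, 129513581 to 129515981), which encodes the smaller MARCKS-like protein, has 1 transcript of 1605 nucleotides with a coding sequence of 603, the shortest of the 6. Its 291 and 96 counts gave 1308 (1162 to 1467) and 1422 (1152 to 1736) CPM per kilobase of coding sequence, with a mean of 1365 ± 80.5 (SD, n = 2). Its libraries lay closest together of the 6 genes relative to their mean. The order of Marcks and Marcksl1 was not the same in both libraries: Marcks was 0.918 times as dense as Marcksl1 in replicate 1 (95% Clopper-Pearson interval 0.788 to 1.07, which includes 1) and 1.34 times as dense in replicate 2 (1.04 to 1.73). A processed pseudogene, Marcksl1-ps4, of 291 nucleotides, held 22 and 7 counts; whether these fragments were also counted for Marcksl1 cannot be read from the table, so the value of Marcksl1 is uncertain to that extent.

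Gpm6a (ENSMUSG00000031517; chromosome 8, 54779434 to 55060878) stood second. Its 1 transcript of 3336 nucleotides has a coding sequence of 837, with untranslated regions of 551 and 1948. The 497 and 182 counts gave 1609 (1471 to 1757) and 1942 (1670 to 2245) CPM per kilobase of coding sequence, with overlapping intervals and a mean of 1775 ± 235 (SD, n = 2), at rank 35.

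Gpm6b (ENSMUSG00000031342; chromosome X, 166238943 to 166389033) had the lowest level on its most counted transcript, number 4 of 12. That transcript has 4764 nucleotides, 918 of them coding and 3517 in the 3' untranslated region. It held 104 counts in replicate 1 and 20 in replicate 2. The densities were 307 (251 to 372) and 195 (119 to 300) CPM per kilobase of coding sequence, with a mean of 251 ± 79.5 (SD, n = 2). On these counts Gpm6a was 5.24 times as dense as Gpm6b in replicate 1 (95% Clopper-Pearson interval 4.24 to 6.54) and 9.98 times in replicate 2 (6.28 to 16.7).

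This gap between the M6 genes depended on how the transcripts are counted. The 12 Gpm6b transcripts, which include 2 of the nonsense-mediated decay class and 1 with a retained intron, held between 37 and 104 counts each in replicate 1 and between 4 and 28 in replicate 2. Together they held 991 and 222 counts, 9.53 and 11.1 times the counts of the most counted transcript. For coding genes with 8 to 12 transcripts the median of this ratio, over both libraries, was 4.02. With the transcripts of every gene summed and the libraries scaled to those sums, Gpm6b stood at 1435 and 1108 CPM per kilobase of coding sequence, against 894 and 1245 for Basp1 and 789.5 and 997 for Gpm6a. It was then the densest of the 6 by the mean (1272 against 1070 for Basp1) and in replicate 1, while in replicate 2 Basp1 was denser.

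Summing counts a fragment repeatedly if it was assigned to each transcript that holds it, and taking the most counted transcript loses fragments if each was assigned to only some of them. The counts bear on this in 4 pairs of Gpm6b transcripts with untranslated regions of the same lengths and a coding sequence that differs by 120 nucleotides. The shorter transcript held more counts than the longer in 3 of the 4 pairs in replicate 1, for example 101 against 90 counts for transcripts 9 and 8, and in 1 of the 4 in replicate 2, with 17 against 16. If the shorter transcripts lack only a stretch of the longer ones and every fragment was assigned to each transcript that holds it, only fragments over the new junction could give the shorter one more. Over the whole table, the shorter of such a pair held more counts in 28 of 88 genes with at least 50 counts on the pair in replicate 1, or 31.8%. The assignment rule was not tested further. The readings are on different scales, because the library totals grow when transcripts are summed, and they do not bracket the level of Gpm6b. The counts of the other 5 genes change little or not at all, since 4 have 1 transcript and the second of Gap43 holds few counts, but on the larger totals their mean densities came to 1070 for Basp1, 893 for Gpm6a, 877 for Gap43, 782 for Marcks and 686 for Marcksl1.

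**Figure D2:**
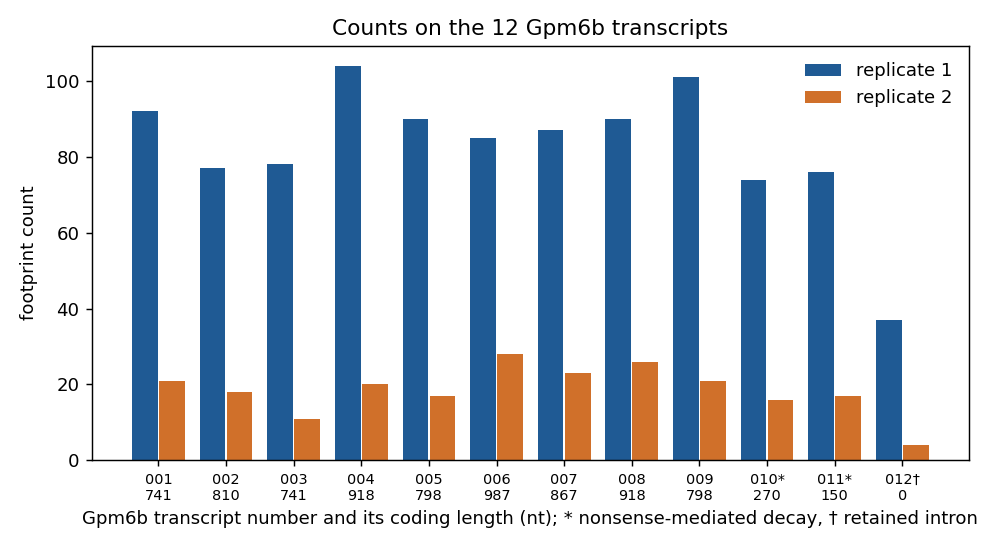
Footprint counts (vertical axis, from 0) on each of the 12 Gpm6b transcripts in the table, numbered as there with the coding length in nucleotides beneath, in replicate 1 (blue) and replicate 2 (orange). Apart from transcript 12, at 37 and 4 counts, the transcripts carry similar counts, 74 to 104 in replicate 1 and 11 to 28 in replicate 2, although their coding lengths run from 150 to 987 nucleotides.

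By mean coding density the order was Basp1, Gpm6a, Gap43, Marcks, Marcksl1 and Gpm6b. No pair of neighbours in the first 5 places was separated in both libraries. Basp1 was 1.13 times as dense as Gpm6a in replicate 1 (95% Clopper-Pearson interval 0.995 to 1.29) and 1.25 times in replicate 2 (1.01 to 1.54). Gpm6a was 1.09 times as dense as Gap43 (0.953 to 1.25) and 1.11 times in replicate 2 (0.883 to 1.40), not distinguishable in either library. Gap43 was 1.23 times as dense as Marcks in replicate 1 (1.06 to 1.42), but 0.920 times in replicate 2 (0.733 to 1.15), so this step changed direction. The ends of this group of 5 were apart in both libraries, with Basp1 1.39 times (1.20 to 1.62) and 1.71 times (1.33 to 2.21) as dense as Marcksl1. The step from Marcksl1 down to Gpm6b was the largest, at 4.26 times (3.39 to 5.38) and 7.31 times (4.48 to 12.5), and it is the step that turned with the transcripts summed.

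Divided by the whole transcript in place of the coding sequence, the order became Basp1, Gap43, Marcksl1, Gpm6a, Marcks and Gpm6b. Basp1 and Gap43 then stood close, at 783 and 776 CPM per kilobase of transcript, and Marcks, with its long 3' untranslated region, stood at 356. Gap43 was then the denser of the pair in replicate 1, at 710 against 672, and Basp1 in replicate 2, at 894 against 843. The lead of Basp1 over Gap43 in both libraries thus did not hold per transcript length. Coding density assumes that fragments lie in the coding sequence. The table has no counts per region to test this for single genes.

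The replicates were then compared gene by gene, the only contrast the design holds; the test compares the reads of these 2 libraries, not conditions. Of the 6 genes, 2 passed the threshold of an adjusted exact binomial p of 0.05, both higher in replicate 2, where 4.14% of all tested genes passed in either direction, 3.99% were higher and 0.147% lower in replicate 2, and 0.956% of the coding genes among them passed. Marcks rose from 1117 to 1768 CPM, 1.58-fold (log2 ratio 0.66, counting SE 0.125), with an adjusted p of 1.25e-05 in the exact binomial test. Basp1 rose from 1241 to 1652 CPM, 1.33-fold (log2 ratio 0.41, counting SE 0.126), with an adjusted p of 0.0325 in the same exact test. Neither call stood when a nominal spread of 0.2 (biological coefficient of variation) between the libraries was allowed in a beta-binomial test. There 2.61% of genes passed and the adjusted beta-binomial p was 1.0 for each. That spread is a chosen value, not one estimated from these libraries. The form of the test gives it only for libraries of equal size, and allows somewhat more for these. The call of Basp1 was also lost with scaling by library totals, where 3.66% of genes passed and its adjusted p was 0.625, and among protein-coding genes alone, where 0.501% passed and its adjusted p was 0.108.

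The other 4 genes did not pass. Gpm6a had a log2 ratio of 0.27 (95% Clopper-Pearson interval 0.018 to 0.52) and Gap43 one of 0.25 (-0.049 to 0.54). Marcksl1 had a log2 ratio of 0.12 (-0.23 to 0.46), whose sign turned to -0.086 with scaling by library totals. For Gpm6b the log2 ratio was -0.66 (-1.43 to 0.042). With transcripts summed it was -0.37 with an adjusted exact binomial p of 0.00944, in a setting where 7.23% of genes passed and fragments counted repeatedly are taken for independent ones. On the transcript with the longest coding sequence, number 6, which held 85 and 28 counts, the log2 ratio was 0.12. It was the only Gpm6b transcript not lower in replicate 2 with TMM scaling. The transcripts may share fragments and are not independent readings, and the interval on the most counted one includes 0. The direction of Gpm6b is therefore uncertain, with most readings lower in replicate 2.

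The called genes had high counts, and a call depends on the count. Of the 42 other coding genes with a summed count in the range of the 5 denser members, 387 to 679, 2 passed the threshold, or 4.76%, both higher in replicate 2. The median log2 ratio of these 42 genes was 0.13, and 32 of them lay above 0. The median of the 6 growth cone genes was 0.26, beside 0.0041 for all genes tested. None of the 42 had a log2 ratio as high as that of Marcks. Scaling by library totals shifts the median of all tested genes from 0.0041 to -0.20 and every ratio with it; under it, Marcks kept its call at a log2 ratio of 0.46, with an adjusted exact p of 0.0109.

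**Figure D3:**
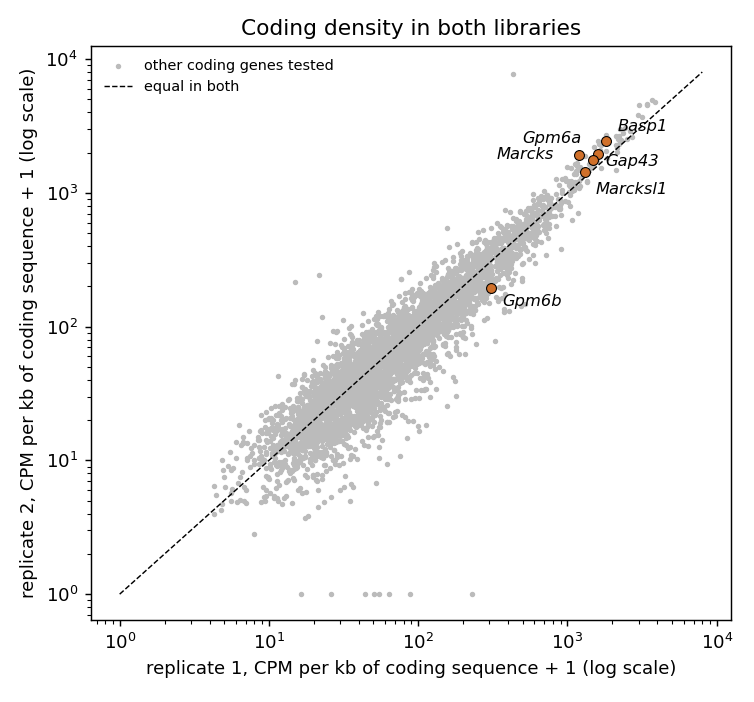
Coding density plus 1, in CPM per kilobase of coding sequence on log scales, in replicate 1 (horizontal axis) and replicate 2 (vertical axis) for the coding genes tested (grey) and the 6 growth cone genes (orange, labelled); the dashed line marks equal values. Basp1, Gpm6a, Gap43, Marcks and Marcksl1 sit together near the upper end and above the line, Marcks farthest (Marcksl1 falls just below it with scaling by library totals), and Gpm6b sits lower, below the line.

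The genes nearest to each member in level were found by the distance over both libraries on log2(coding density + 1), a measure with only 2 points that says nothing of shared function or control. Nearest to Basp1 were Stmn3, a neuronal stathmin, at a distance of 0.083, and Cfl1, the actin-severing protein cofilin, at 0.146. Gap43 lay nearest to Uchl1, an abundant neuronal deubiquitinase, at 0.039, with 372 and 129 counts against its own 372 and 134, and to the 14-3-3 gene Ywhae at 0.096. Gpm6a lay nearest to the 14-3-3 gene Ywhag at 0.108 and to Nrep at 0.172. Marcks lay nearest to Ptn, the growth factor pleiotrophin, at 0.132, and to the histone gene Hist1h4a at 0.203. Marcksl1 lay nearest to Ndufa4 at 0.072 and the histone gene Hist1h4i at 0.161, and Gpm6b to Zcchc18 at 0.069 and Tusc3 at 0.070.

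Lists of genes that work with these proteins were set beside them. Calmodulin, which binds the basic patch of GAP-43 and MARCKS, was at a like level: Calm3 stood at 2576 ± 314 CPM per kilobase of coding sequence and Calm2 at 1944 ± 169 (each SD, n = 2). The calmodulin genes encode the same protein, and fragments that match more than 1 of them may be counted for each. Neither gene passed the test between the libraries.

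Among 7 other genes for calmodulin-binding proteins or protein kinase C substrates, all 7 were tested, none passed, and the median density was 77.1 CPM per kilobase of coding sequence. The densest was Nrgn, which encodes neurogranin, a postsynaptic protein with the same type of calmodulin-binding motif as GAP-43, at 1807 in replicate 1 and 2713 in replicate 2, a mean of 2260 ± 641 (SD, n = 2). Pcp4, a small calmodulin-binding protein gene, stood at 758 ± 2.82 (SD, n = 2). It had only 53 and 16 counts, with a counting SE of 0.41 for its log2 ratio, so this SD understates its uncertainty. The adducin genes Add1, Add2 and Add3, whose products end in a MARCKS-related domain, stood far lower, at 81.4, 77.1 and 53.0.

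Of the 9 protein kinase C genes, the 8 with a coding length for their transcript all lay below the 6 growth cone genes. Of the 9, 5 were tested and none passed. The median of those tested was 62.7 CPM per kilobase of coding sequence, close to that of all coding genes tested. Over the 8 with a coding length, with those of low count included, the median was 37.7. Prkcb was the densest at 81.1 ± 8.51, followed by Prkce at 72.0 ± 10.6 (each SD, n = 2). Prkcb had 65 and 17 counts and Prkce had 65 and 16, so the libraries cannot separate them.

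Enzymes that attach or remove the lipid anchors, listed together with methionine aminopeptidases, were, where tested, also near the median of the coding genes tested. Of the 16 genes of this list, 10 were tested, with a median of 55.3 CPM per kilobase of coding sequence, and none passed. Over all 16, with those of low count included, the median was 41.7. Lypla2, a thioesterase gene, was the densest at 120 ± 6.45, followed by Abhd17b, a depalmitoylase gene, at 98.2 ± 50.5 (each SD, n = 2). Lypla2 had only 32 and 9 counts, so its SD also understates its uncertainty. Nmt1, which encodes an N-myristoyltransferase, had 32 and 15 counts. All 16 genes lay below Gpm6b, the lowest of the growth cone genes.

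Of 11 genes for enzymes of phosphoinositide metabolism, 6 were tested, with a median of 73.5 CPM per kilobase of coding sequence, and none passed. Over all 11, with those of low count included, the median was 29.7. Pip5k1c, for a kinase that makes PIP2, stood at 273 ± 31.3 (SD, n = 2), on a transcript with a coding sequence of only 303 nucleotides that raises its density. In the proteolipid list, Mal2, for a raft-associated membrane protein, stood at 100.3 ± 25.6 (SD, n = 2), and Mal had no count in either library, which allows a share of up to 0.00087% of counts in replicate 1 and 0.0025% in replicate 2.

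Other growth cone proteins ranged from 34.0 to 2439 CPM per kilobase of coding sequence, with a median of 342 over 25 genes, all tested. Of the 25, only Stmn2, which encodes the neuronal stathmin SCG10, at 2439 ± 340 (SD, n = 2), was above Basp1. Cfl1 followed at 1982 ± 428 (SD, n = 2). Of the 25, 22 lay below Marcksl1, but only 12 lay below Gpm6b on its most counted transcript. Between the libraries 3 of the 25 passed the test: Cfl1 (log2 ratio 0.44, adjusted exact binomial p = 0.0232) and Dpysl2, for the collapsin response mediator CRMP2 (0.36, adjusted exact binomial p = 0.0102), were higher in replicate 2, and Gnao1, for the G protein subunit Go alpha (-0.79, adjusted exact binomial p = 0.0286), was lower. Over all genes tested 4.14% passed, and over the coding genes among them 0.956%. With the preset spread of 0.2 between the libraries none of the 25 passed, and with library totals only Gnao1 did. Many genes of these lists have several transcripts, and their levels carry the same uncertainty as that of Gpm6b.

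**Figure D4:**
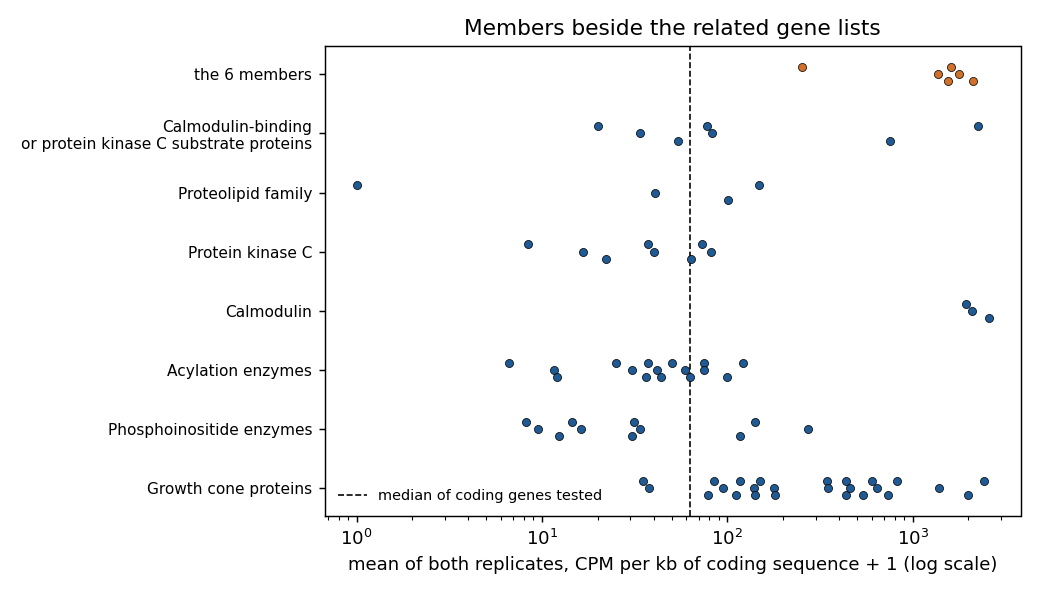
Mean coding density of both replicates plus 1, in CPM per kilobase of coding sequence on a log scale (horizontal axis), for the 6 growth cone genes (orange) and the genes of 7 related lists (blue), 1 point per gene with a coding length; points are spread vertically only to avoid overlap, and the dashed line is the median of the coding genes tested, 62.3. The calmodulin genes lie beside the 5 dense growth cone genes, while the protein kinase C and acylation enzyme genes lie around or below the dashed line.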

How the data were processed

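Ribosome-protected fragments captured with RiboLace were counted in 2 libraries of 1 group. The submitters' processing notes name Trimmomatic 0.36, Bowtie2 2.2.6, SAMtools and the mouse build GRCm38.p4, without saying what each was used for. The authors deposited 1 table of whole-number counts per transcript, not normalised, with the lengths of each transcript and its regions per the file header. The counting rule, and how fragments that match several transcripts were treated, are not given in the sources used here. Each count column was matched to its sample by the control, RiboLace and replicate labels in its name.

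Each gene took the values of the transcript that had most counts in both libraries together. All 6 members carried the same symbol in the reference name table. Gene totals were 343552 and 120282 counts. Counts were scaled with TMM factors (1.07 and 0.931) from edgeR 4.0.16, over genes averaging 10 counts or more. Coding density is CPM divided by coding length in kilobases. The log2 ratio is taken on log2(CPM + 1), which understates changes of low genes. Intervals are exact (Clopper-Pearson for ratios, Poisson for densities) or Wilson (shares), at 95%, and reflect counting error alone. No molecular identifiers are described in the labels' protocols. Amplified copies of a fragment may therefore be counted as separate fragments, and the intervals and p-values may be too small. The 2-sided exact binomial test with Benjamini-Hochberg adjustment over all 5436 genes compared the libraries at a threshold of 0.05. It was also run on simulated counts with Poisson error alone, which cannot show how often spread between libraries leads to calls. Beside the members, the genes named are the 2 nearest in level to each member, the 2 densest genes of each list, every list gene past the threshold, and marker genes; Calm2, Add1, Add2, Add3, Nmt1 and Mal were named after their values were seen, and a few list genes are not reported here. Members and lists were chosen with earlier results of these data known. Alternatives changed the scaling, the filter, the representative transcript, the length, the pseudocount and the spread allowed.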

Additional observations from a re-analysis of the deposited data

How the results depend on the processing

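No paired analysis was possible because all libraries belong to the same group. The use of summed isoforms, and every alternative for the density of a single gene, were chosen after the data were seen. The count of 2 differing genes became 1 with library totals, 1 among protein-coding genes alone, 1 with at least 1 count in each library, 1 when a mean count of 50 was required and 0 with a preset spread of 0.2 (coefficient of variation), and it was 3 with isoforms summed; Marcks was the gene that stayed in each case but the preset one. The mean share of 0.649% became 0.845% of the counts of protein-coding genes and 0.438% with isoforms summed, the first by a change of denominator alone and the second because the totals grew more than the members' counts, and ranged from 0.621% to 0.678% without either replicate. The log2 median density over that of all coding genes, 4.66, became 4.11 per transcript length, 2.32 when a mean count of 50 was required, which removes low genes, and 6.09 with at least 1 count in each library, which adds them; without either replicate it ranged from 4.44 to 4.89. Of the 6 places in the order, 2 were kept per transcript length, 2 by CPM alone, 0 with isoforms summed and 4 without either replicate. The log2 ratio of Marcksl1 turned from 0.12 to -0.086 with library totals, and that of Gpm6b from -0.66 to 0.12 on its isoform of longest coding sequence. Where no cause is given, the cause was not tested. Depth limits Gpm6b most, at 20 counts in replicate 2.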
